A study of Mus musculus with 8 samples.

Results

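The expression of 10 genes for proteoglycans and glycoproteins of the extracellular matrix, Lum, Dcn, Bgn, Vcan, Fbn1, Eln, Sparc, Thbs1, Thbs2 and Fn1, was examined in mouse liver. They were chosen by name, as matrix genes other than collagens, with earlier results of these data known. Each was found by its Ensembl identifier among the 52636 genes of the count tables. All 10 had enough counts to be tested, as had 15248 genes in all. Livers came from 8 male wild-type C57BL/6J mice, 1 library per mouse. The 4 AAV8-GFP mice (animal numbers 303, 311, 314 and 315) were given an adeno-associated virus carrying GFP, and the 4 AAV8-AGXT mice (308, 309, 316 and 319) the same virus carrying human AGXT, an enzyme that converts glyoxylate to glycine. In both viruses the hepatocyte-specific TBG promoter drove the gene, so that AGXT was added to hepatocytes. All mice were injected at 7 weeks of age, began a steatohepatitis-inducing (MASH) diet rich in fat, fructose and cholesterol at 8 weeks of age and ate it for 24 weeks. The comparison asks how expression in the diseased liver differs when hepatocytes carry more AGXT.

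Collagen fibrils of a scarring liver are surrounded by other matrix proteins that set their spacing, elasticity and contact with cells. Small leucine-rich proteoglycans (lumican, decorin, biglycan) bind collagen fibrils, large proteoglycans such as versican hold hyaluronan, fibrillin microfibrils carry elastin and store latent TGF-β, and matricellular proteins such as SPARC and the thrombospondins modulate how cells meet the matrix. Hepatic stellate cells and portal fibroblasts are known sources of most of them, whereas fibronectin is also made in quantity by hepatocytes and secreted into plasma.

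Library depth, as read pairs assigned to genes, ranged from 19747909 to 28780140 in AAV8-GFP livers and from 17095433 to 23940200 in AAV8-AGXT livers. Mouse Agxt was at 148.3 to 179.9 CPM (counts relative to library size, scaled here by the TMM method of edgeR) in AAV8-GFP livers and at 201.5 to 405.3 CPM in AAV8-AGXT livers, with no overlap, although how far reads of the human transgene were counted on the mouse gene was not tested. The 9 hepatocyte markers measured, Alb for albumin among them, together took 58188 to 97888 CPM, as the liver label implies. Changes are given as log2 fold changes of AAV8-AGXT against AAV8-GFP from edgeR's quasi-likelihood test, with p-values adjusted by Benjamini-Hochberg over all 15248 genes, and the threshold for calling a gene was an adjusted p of 0.05. In bulk liver RNA, fewer cells of a type and less RNA per cell cannot be told apart.

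Vcan (ENSMUSG00000021614, chr13:89655312-89742509, minus strand), which encodes versican, fell in AAV8-AGXT livers and was the only member called. Coordinates of members are those of GENCODE M21 on GRCm38 and span the whole gene, and counts are of its exons. The level of Vcan was 1.29, 1.90, 3.51 and 1.72 CPM in AAV8-GFP mice 303, 311, 314 and 315, and 0.552, 0.601, 0.976 and 0.613 CPM in AAV8-AGXT mice 308, 309, 316 and 319. Every AAV8-AGXT liver was below every AAV8-GFP liver, and mouse 314 stood highest. The log2 fold change was −1.59 (SE 0.37, 95% interval −2.43 to −0.77, adjusted p = 0.0455 by edgeR's quasi-likelihood test). Thus 1 of 10 members was called lower and 0 higher, where 1.9% of all tested genes were called lower and 2.45% higher. Likewise, 1 of 10 members had groups that did not overlap with AAV8-AGXT lower, against 7.63% of all tested genes (8.93% with AAV8-AGXT higher, where 0 members were). Each of these counts rests on Vcan alone. Vcan was also the scarcest member, with 33 to 76 counts in AAV8-GFP livers and 8 to 19 in AAV8-AGXT livers. The call was lost when any 1 of the 8 mice was left out, with adjusted p from 0.0522 to 0.14 and log2 fold changes from −1.81 to −1.26, and with limma-voom (adjusted p = 0.0594).

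The wider pattern was one of direction and size. Among the 10 members 9 had a negative log2 fold change and 1, Fn1, a positive one, with a median of −1.02 against 0.02 over all tested genes, of which 47.7% were negative. At an unadjusted p under 0.05, 7 members were lower (12.6% of all tested genes were) and 1 was higher (13.5%). The members were moved by the same mice, as described below, so they are not independent measurements of the treatment. They were also chosen with earlier results of these data known. With DESeq2 in place of edgeR 5 members were called lower, namely Vcan, Fbn1, Eln, Sparc and Thbs1 (adjusted p from 0.00334 to 0.0195), where DESeq2 called 6.11% of all genes lower. Limma voomWithQualityWeights called 5 members lower (3.97% of all genes) and edgeR with no filter on low counts 4 (1.52%), so the count of calls depended on the method.

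Signs of the libraries moved with the members. TMM factors were 1.021 to 1.137 in AAV8-GFP and 0.83 to 1.001 in AAV8-AGXT libraries, lowest in mice 308 (0.83) and 319 (0.886), which were also lowest for most members. Mouse 308 further had the largest share of counting tallies on no gene (43.7%, against 30.9% to 37.6% in the others). These include non-unique alignments (23.4%, against 17.4% to 22.5%) and unaligned pairs (6.05%, against 1.32% to 4.55%). When libraries were scaled by total counts alone, without TMM factors, the log2 fold changes of the 9 negative members ran from −1.82 for Vcan (adjusted p = 0.0356 by edgeR) to −0.35 for Dcn, each further from 0 than with TMM. Without mouse 308 that of Vcan was −1.52 and that of Sparc −0.84, and without mouse 319 they were −1.53 and −0.82. Mice 308 and 319 also had the highest sums of hepatocyte markers (97888 and 85540 CPM). The parts of library quality and of RNA composition in the members' values were not tested further.

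**Figure D1:**
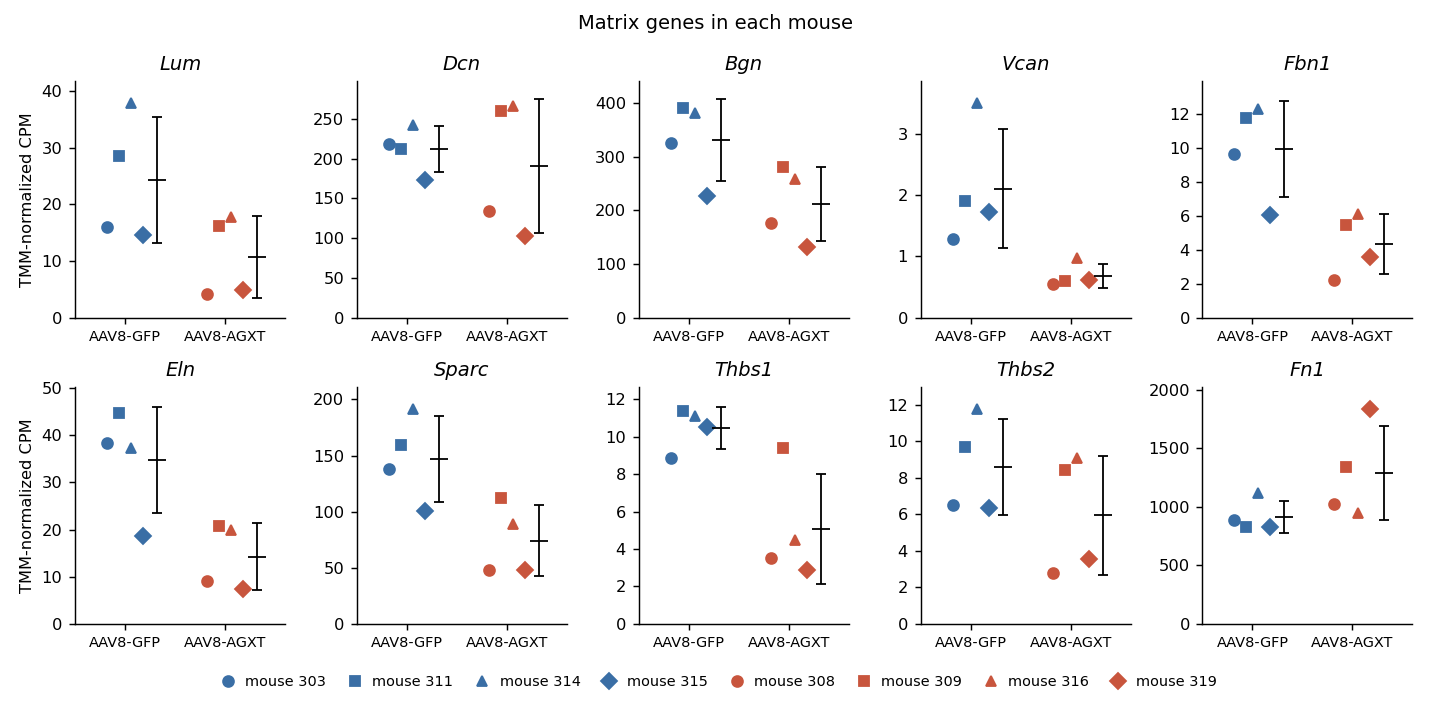
TMM-normalized CPM (linear axes from 0) of each matrix gene in the 4 AAV8-GFP mice (blue) and the 4 AAV8-AGXT mice (red), with 1 symbol per mouse and black bars for mean ± SD (n = 4). The groups overlap in every panel but that of Vcan, and mouse 319 is highest for Fn1 at 1839 CPM.

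**Figure D2:**
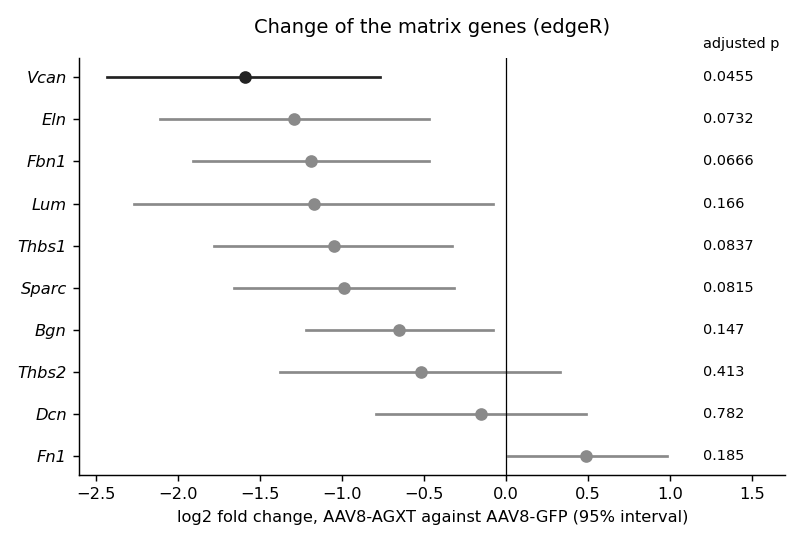
Log2 fold change of each matrix gene (points) with its 95% interval (lines), and the adjusted p of edgeR's quasi-likelihood test at right. Black marks Vcan, the 1 gene called, and grey the others, from −1.29 for Eln to 0.49 for Fn1.

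RefSeq's promoter table (GRCm38.p6) held 5 of the 10 members, and the 250 bases before the RefSeq start are shown, 5′ to 3′ on the gene's strand, for Vcan, as the called gene, and for Bgn, lower at an unadjusted p under 0.05. Fbn1 and Sparc were also lower at that p, but RefSeq places their starts 1555 and 3103 bases inside the GENCODE gene and the windows lie mostly in its exons, so they are not shown. The windows shown lie before the GENCODE start as well, at chr13:89742513-89742762 (Vcan, minus strand, within the span of Gm4117 on the opposite strand) and chrX:73483351-73483600 (Bgn, plus strand). Capitals mark matches to motifs searched on both strands, namely the GC box GGGCGG, the CCAAT box, the TATA box TATAAA, the AP-1 motif TGANTCA and the TEAD motif GGAATG.
Vcan: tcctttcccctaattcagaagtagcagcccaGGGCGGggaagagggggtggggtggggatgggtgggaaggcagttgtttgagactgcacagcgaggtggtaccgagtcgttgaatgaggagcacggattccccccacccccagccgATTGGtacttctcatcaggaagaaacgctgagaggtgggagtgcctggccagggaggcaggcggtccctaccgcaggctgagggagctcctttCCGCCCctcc
Bgn: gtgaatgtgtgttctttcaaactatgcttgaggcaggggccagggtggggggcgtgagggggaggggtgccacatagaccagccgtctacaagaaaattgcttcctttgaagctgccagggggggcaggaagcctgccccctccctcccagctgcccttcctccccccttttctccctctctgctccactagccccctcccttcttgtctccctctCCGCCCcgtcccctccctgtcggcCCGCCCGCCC
Vcan held the GC box at 219 and, on the other strand, at 10 bases before the start, and a CCAAT box on the other strand at 103 bases. Bgn held the GC box on the other strand at 34, 10 and 6 bases before the start, the last 2 overlapping. Of 10968 promoters of tested genes with the same length, 56.7% held the GC box, 36.2% the CCAAT box, 6.97% the TATA box, 4.67% the AP-1 motif and 10.7% the TEAD motif. The GC box is thus shared with most promoters, and the GC contents were 62.4% for Vcan and 64.4% for Bgn. These matches are descriptions of letters and not of bound sites.

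The small leucine-rich proteoglycans had log2 fold changes of different size, but the tests of their ratios did not pass after adjustment, as given below. Lum (ENSMUSG00000036446, chr10:97565128-97572703, plus strand) encodes lumican, a keratan sulfate proteoglycan that regulates collagen fibril assembly. Its level was 16, 28.6, 38.0 and 14.6 CPM in AAV8-GFP mice and 4.21, 16.2, 17.8 and 4.86 CPM in AAV8-AGXT mice (same order as above). Mice 308 and 319 were far below all others, while mice 309 and 316 overlapped the AAV8-GFP range. Its log2 fold change was −1.17 (SE 0.49, 95% interval −2.27 to −0.08), and it did not pass the threshold (adjusted p = 0.166 by edgeR). Bgn (ENSMUSG00000031375, chrX:73483602-73495933, plus strand), for biglycan, measured 325.5, 391.2, 382.1 and 226.2 CPM against 176.5, 279.8, 258.4 and 131.6 CPM. Mouse 315 fell within the AAV8-AGXT range, and the log2 fold change of −0.65 (SE 0.26) did not pass either (adjusted p = 0.147 by edgeR).

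Dcn (ENSMUSG00000019929, chr10:97479609-97518143, plus strand), for decorin, which binds collagen and TGF-β, had the closest group means of the 3. It measured 218.6, 212.9, 243.2 and 173.4 CPM in AAV8-GFP mice and 134.7, 260.3, 266.9 and 103.3 CPM in AAV8-AGXT mice. The AAV8-AGXT livers fell on both sides of the AAV8-GFP range, with a coefficient of variation of 44.2% against 13.6% (67.1% against 45.7% for Lum and 32.8% against 22.9% for Bgn). Its difference on the log2 scale was −0.15 (95% interval −0.79 to 0.49, adjusted p = 0.782 by edgeR), an interval that leaves room for changes of either sign, and it became 0.06 without mouse 319. The log2 ratio of Dcn to Lum within a liver was 3.22 ± 0.52 in AAV8-GFP mice and 4.31 ± 0.48 (SD, n = 4 each) in AAV8-AGXT mice. That difference of 1.09 had the smallest p that a two-sided exact permutation test can give here (p = 0.0286, 0.171 after adjustment over the 6 member ratios tested). The log2 ratio of Dcn to Bgn differed by 0.42 (exact permutation p = 0.0571, adjusted 0.171).

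The elastic fibre genes Eln and Fbn1 had the largest log2 fold changes after Vcan in the reported fit. Lum (−1.17) was close to Fbn1, and the order changed with the method. Under limma-voom, Lum was at −1.34 and Fbn1 at −1.23. Fbn1 (ENSMUSG00000027204, chr2:125300594-125507993, minus strand) encodes fibrillin-1, the main microfibril protein. It measured 9.64, 11.8, 12.3 and 6.04 CPM in AAV8-GFP mice against 2.21, 5.47, 6.11 and 3.59 CPM in AAV8-AGXT mice. Only AAV8-GFP mouse 315 and AAV8-AGXT mouse 316 met, at 6.04 and 6.11 CPM. The log2 fold change was −1.19 (SE 0.32, 95% interval −1.91 to −0.47, adjusted p = 0.0666 by edgeR), and of the 8 fits without 1 mouse, 1 called it (adjusted p = 0.0471 without mouse 315, and up to 0.194, without mouse 311). Eln (ENSMUSG00000029675, chr5:134702593-134747323, minus strand), for elastin, measured 38.4, 44.7, 37.3 and 18.6 CPM against 9.04, 20.8, 19.8 and 7.27 CPM. Here too mouse 315 sat inside the AAV8-AGXT range and the other 3 AAV8-GFP livers above all AAV8-AGXT livers. Its log2 fold change was −1.29 (SE 0.37, adjusted p = 0.0732 by edgeR), called in 1 of those 8 fits (adjusted p = 0.0483 without mouse 315, and up to 0.209, without mouse 311). The log2 ratio of Eln to Fbn1 differed by −0.13 between groups (exact permutation p = 0.771, also 0.771 adjusted over 6 ratios). The strand setting of the counting is not known, and Gm9913 on the opposite strand shares 2442 of the 12128 exon bases of Fbn1. If strand was ignored, pairs on these bases may have been left uncounted as ambiguous between the genes, which was not tested. Such overlaps covered 267 exon bases of Eln, 208 of Thbs1 and 292 of Fn1.

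Sparc (ENSMUSG00000018593, chr11:55394500-55423183, minus strand) encodes a collagen-binding matricellular protein, osteonectin. It measured 138.0, 159.1, 191.8 and 100.1 CPM in AAV8-GFP mice and 47.8, 112.2, 88.8 and 47.8 CPM in AAV8-AGXT mice. Mice 308 and 319 were lowest, and 315 and 309 were the pair that overlapped. The log2 fold change was −0.99 (SE 0.30, 95% interval −1.66 to −0.32, adjusted p = 0.0815 by edgeR), and it was called in 1 of the 8 fits without 1 mouse (−1.27, adjusted p = 0.0479 without mouse 309). In the others the adjusted p rose to 0.213 (without mouse 311) and the log2 fold change shrank to −0.82 (without mouse 319).

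Thbs1 (ENSMUSG00000040152, chr2:118111876-118127133, plus strand) and Thbs2 (ENSMUSG00000023885, chr17:14665500-14694235, minus strand) encode thrombospondins, and Thbs1 is known as an activator of latent TGF-β. Thbs1 measured 8.86, 11.4, 11.1 and 10.5 CPM in AAV8-GFP mice, the narrowest spread of any member in that group relative to its mean, and 3.52, 9.37, 4.47 and 2.88 CPM in AAV8-AGXT mice. Mouse 309 was the only AAV8-AGXT liver within the AAV8-GFP range. Its log2 fold change was −1.05 (SE 0.33, adjusted p = 0.0837 by edgeR), and leaving out 1 mouse moved it between −1.55 (adjusted p = 0.0193, without mouse 309, the 1 such fit of 8 that called it) and −0.85 (adjusted p = 0.171, without mouse 319), with adjusted p of up to 0.22 (without mouse 311). Thbs2 measured 6.52, 9.67, 11.8 and 6.35 CPM against 2.76, 8.41, 9.09 and 3.54 CPM. Mice 309 and 316 lay inside the AAV8-GFP range, and the log2 fold change was −0.52 (95% interval −1.38 to 0.33, adjusted p = 0.413 by edgeR). The log2 ratio of Thbs1 to Thbs2 differed by −0.53 between groups (exact permutation p = 0.171, adjusted 0.257), so the paralogs were not shown to differ in response.

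Thbs1 is also stored in platelets. Among platelet markers, 3 of 8 were tested and 0 called by edgeR, with 1 negative, 2 positive and a median log2 fold change of 0.22. DESeq2 called 1 of 5 tested ones lower (6.11% of all genes). Their summed level was 9.59 to 12 CPM in AAV8-GFP livers and 6.85 to 12.4 CPM in AAV8-AGXT livers. The defining marker Pf4 had a log2 fold change of −1.32 (adjusted p = 0.0816 by edgeR), Itga2b one of 0.22 (adjusted p = 0.539) and Gp1ba one of 0.42 (adjusted p = 0.605). Their part in the Thbs1 values was not tested.

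Fn1 (ENSMUSG00000026193, chr1:71585520-71653200, minus strand), for fibronectin, was the only member with a higher mean in AAV8-AGXT livers. It measured 889.1, 829.7, 1114 and 825.4 CPM in AAV8-GFP mice and 1028, 1336, 947.3 and 1839 CPM in AAV8-AGXT mice. Mice 309 and 319 were above all AAV8-GFP livers, and mice 308 and 316 within their range. The log2 fold change was 0.49 (SE 0.22, 95% interval 0.01 to 0.98, adjusted p = 0.185 by edgeR), 0.28 without mouse 319 and 0.25 when libraries were scaled by total counts alone. Mouse 319 was also highest for Itih3 and Itih4, secreted hepatocyte proteins of the hyaluronan list. Itih4 was at 3629 CPM there and at most at 1787 CPM in any other liver, and Itih3 at 2593 CPM against at most 1153 CPM. Hepatocyte markers shared the direction of Fn1 between groups, with 9 of 9 higher in mean and 1 called (Cps1, of the urea cycle, log2 fold change 0.96, adjusted p = 0.0279 by edgeR). Scaled by total counts alone, 2 of these 9 were negative, and their median log2 fold change was 0.13 (0.37 with TMM). Their summed levels, scaled by TMM, were 58188 to 67567 CPM in AAV8-GFP and 68654 to 97888 CPM in AAV8-AGXT livers. The order of livers differed, since mouse 308 had the highest sum (97888 CPM) but Fn1 within the AAV8-GFP range. The part of hepatocytes in the Fn1 values was not tested.

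Per length, in FPKM (fragments per kb of merged exon, scaled by library size), members covered a wide range of levels. In AAV8-GFP livers the order was Fn1 (78.3 ± 11.6, SD, n = 4), Bgn (54.3 ± 12.4), Sparc (38.9 ± 10.2), Dcn (36.3 ± 4.95), Lum (9.92 ± 4.53), Eln (4.29 ± 1.39), Thbs1 (1.72 ± 0.189), Thbs2 (1.22 ± 0.374), Fbn1 (0.819 ± 0.233) and Vcan (0.145 ± 0.067). Neighbours whose ranges over mice overlapped were Bgn and Sparc, Sparc and Dcn, Thbs1 and Thbs2, and Thbs2 and Fbn1. In AAV8-AGXT livers Dcn (32.8 ± 14.5) stood before Sparc (19.6 ± 8.42) and Thbs2 (0.85 ± 0.466) before Thbs1 (0.833 ± 0.486), but in both pairs the ranges overlapped. Fn1 reached 110.2 ± 34.5 there and Vcan 0.0474 ± 0.0135. As a share of the summed level of all 10 members, Fn1 took 30.2% to 40.3% in AAV8-GFP livers and 39.6% to 73.7% in AAV8-AGXT livers. The other 9 members summed to 147.6 ± 32.6 in AAV8-GFP livers and 95.3 ± 38.5 in AAV8-AGXT livers, with mice 309 (132.5) and 316 (123.8) inside the AAV8-GFP range.

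**Figure D3:**
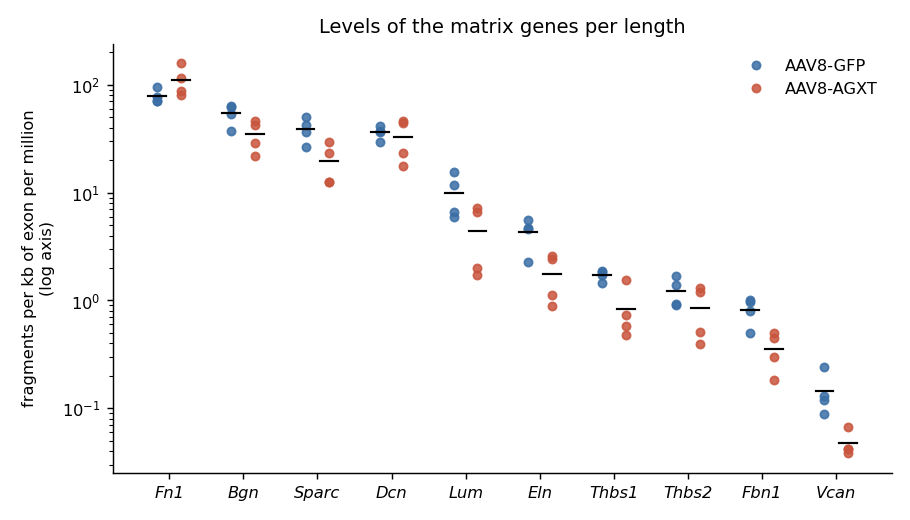
Level per length (log axis) of each matrix gene in AAV8-GFP (blue) and AAV8-AGXT (red) livers, with 1 point per mouse and black bars for the means of 4 mice. Genes are ordered by the AAV8-GFP mean, from Fn1 at 78.3 to Vcan at 0.145 FPKM.

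The order of the mice was similar for most members, which is given as a description because all values come from the same 8 libraries. Mouse 314 had the highest level of 5 members (Lum, Vcan, Fbn1, Sparc, Thbs2) and mouse 311 that of 3 (Bgn, Eln, Thbs1). Mouse 319 had the lowest of 5 (Dcn, Bgn, Eln, Sparc, Thbs1) and mouse 308 that of 4 (Lum, Vcan, Fbn1, Thbs2). Thus the AAV8-AGXT group held a pair of livers low for most members and another pair, 309 and 316, nearer to the AAV8-GFP livers. After each gene's log2 CPM was standardized over the 8 mice, the root mean square difference from the mean profile of the members (0 for the same shape) was smallest for Sparc (0.13) and Lum (0.16) and largest for Fn1 (1.7), with Vcan at 0.62 and Dcn at 0.60. The closest pairs of members were Bgn and Eln (0.21), Lum and Thbs2 (0.22) and Eln and Sparc (0.26). Among all other tested genes, those nearest to the mean profile were Ccdc80 (0.08), Aebp1 (0.10), Adamts2 (0.13), Emp1 (0.14), Loxl2 (0.15), Srpx (0.16), Art4 (0.16) and Lhfp (0.17). None of these 8 was called, with adjusted p from 0.0852 for Srpx to 0.231 for Art4 by edgeR.

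**Figure D4:**
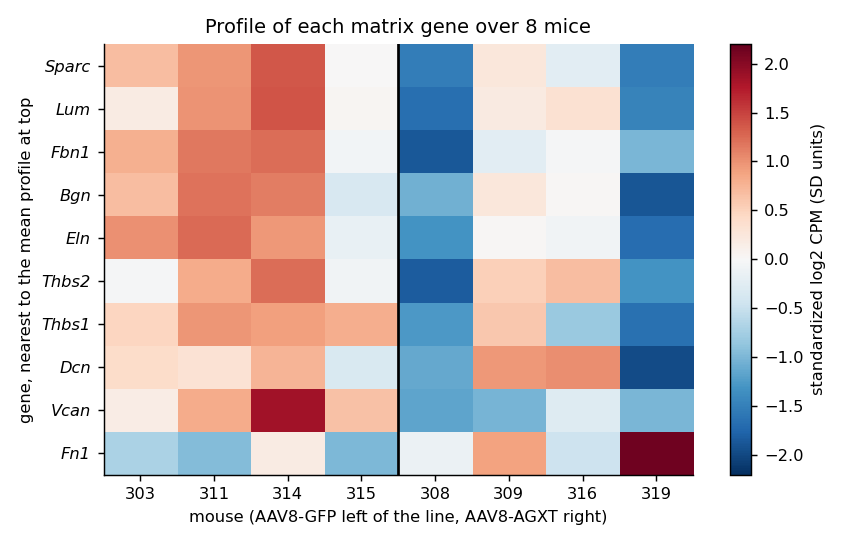
Log2 CPM of each matrix gene standardized over the 8 mice (colour, in SD units, red high and blue low), with mice in columns and genes in rows ordered by nearness to the mean profile. Mice 308 and 319 are blue in every row above that of Fn1, and mouse 319 is the reddest cell of the Fn1 row.

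Levels were set beside markers of the cells that make matrix. The 14 general stellate cell markers had a median log2 fold change of −0.12, with 9 negative, 5 positive and none called. They summed to 230.4 to 337.7 CPM in AAV8-GFP and 214.9 to 344.8 CPM in AAV8-AGXT livers. At an unadjusted p under 0.05 by edgeR, 5 were lower and 2 higher (12.6% and 13.5% of all tested genes were). DESeq2 called 3 of them lower and 2 higher, where it called 1024 genes lower (6.11%) and 1054 higher among 16749. Lrat, which stores retinol in quiescent stellate cells, had a log2 fold change of 0.11. Activated stellate cell markers moved with the members, with 7 of 9 tested ones negative and 2 called lower, Acta2 for smooth muscle actin (log2 fold change −0.99, adjusted p = 0.0427 by edgeR) and Timp1, an inhibitor of matrix proteases (−2.29, adjusted p = 0.0444). Their summed level was 354.8 to 690.8 CPM in AAV8-GFP and 90.3 to 318.3 CPM in AAV8-AGXT livers, without overlap. Over all tested genes 47.7% were negative and 1.9% were called lower. When the mean log2 CPM of the 14 general markers was subtracted in each liver, the groups did not overlap for 4 members, Vcan (difference −1.28), Eln (−1.20), Fbn1 (−1.07) and Sparc (−0.90), where 4.5% of all tested genes did not overlap in that direction. For the other 6 the groups overlapped, with differences from −1.19 for Lum to 0.61 for Fn1. The mean subtracted covers markers that went in both directions, so it does not measure the number of stellate cells. This comparison was added after values were seen.

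Markers of other cells moved too. All 6 tested markers of portal fibroblasts and mesothelium were negative (median −0.95, summed level 16 to 35.2 CPM against 6.90 to 16.9 CPM). So were 7 of 7 of cholangiocytes (median −1.13, 226.7 to 681.5 CPM against 75.5 to 276.7 CPM). Most of the cholangiocyte sum was Spp1, which also stands among the matricellular genes below. EdgeR called no marker of either list. DESeq2 called 4 of 9 tested portal and mesothelial markers and 4 of 7 cholangiocyte markers lower (6.11% of all genes). Of 12 macrophage markers 8 were negative (median −0.96) and 1, Cd9, was called lower (log2 fold change −1.03, adjusted p = 0.0298 by edgeR), with sums of 581.3 to 904.1 CPM against 269.9 to 629.2 CPM. DESeq2 called 5 of the 12 lower and 1 higher, where it called 1024 genes lower and 1054 higher among 16749. Markers of T and B cells summed to 13.1 to 19.1 CPM against 7.11 to 13.3 CPM, with 5 of 8 negative, those of sinusoidal endothelium to 197.1 to 307.8 CPM against 194.9 to 398.6 CPM, with 1 of 8 negative, and those of red blood cells to 86.4 to 144.9 CPM against 114.2 to 302.5 CPM, with 0 of 5 negative. None of these 3 lists held a gene called by edgeR. DESeq2 called 2 of 8 T and B cell markers lower and 1 of 5 red blood cell markers higher. No marker of any of these lists was at 0 in every mouse. The part of these cells in the members' values was not tested.

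Genes that work with the members were followed in 9 lists of 157 genes, of which 129 were tested. Of these, 92 had a negative log2 fold change, the median was −0.33, and 7 were called lower and 2 higher. Over all tested genes 47.7% were negative, 1.9% were called lower and 2.45% higher. The 17 other elastic fibre and microfibril genes had 16 tested, all with negative log2 fold changes and a median of −1.06. Called lower were Ltbp2, a latent TGF-β binding protein family member of microfibrils (from 9.31 ± 2.88 to 2.74 ± 0.966 CPM, mean ± SD of 4 mice, log2 fold change −1.76, adjusted p = 0.0279 by edgeR), Efemp2, or fibulin-4, needed for elastic fibre assembly (13.2 ± 2.66 to 6.49 ± 1.24 CPM, −1.02, adjusted p = 0.0341), and Emilin1, an elastin interface protein (61.3 ± 10.4 to 39.9 ± 6.03 CPM, −0.62, adjusted p = 0.0489). DESeq2 called 9 of the 16 lower (6.11% of all genes), and leaving out single mice gave 0 to 6. Ltbp2 overlaps D030025P21Rik and Efemp2 overlaps Mus81, so their counts carry the same doubt as those of Fbn1.

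Of 19 genes for other matrix glycoproteins, 18 were tested, 14 negative (median −0.64), and Mgp, the matrix Gla protein that inhibits calcification, was called lower (from 8.26 ± 3.75 to 2.57 ± 0.244 CPM, mean ± SD of 4 mice, log2 fold change −1.69, adjusted p = 0.0388 by edgeR). Of 14 proteases and regulators of versican and thrombospondin, 11 were tested, 8 negative (median −0.68), and 2 called lower. These were Pcolce, an enhancer of procollagen C-proteinase (27.8 ± 4.67 to 14.5 ± 2.2 CPM, −0.94, adjusted p = 0.0278), and Adamts9, a versican-cleaving protease (9.18 ± 3.15 to 3.49 ± 1.25 CPM, −1.40, adjusted p = 0.0449). Of 19 other matricellular genes, 13 were tested, 12 negative (median −0.63) and none called, and Spp1, for osteopontin, had the smallest p (484.0 ± 194.2 and 157.1 ± 84.8 CPM, −1.62, adjusted p = 0.0704).

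Proteoglycans beyond the members did not share one direction. Of 13 other small leucine-rich proteoglycan genes 8 were tested, 5 negative (median −0.11) and none called, with Fmod, for fibromodulin, at a log2 fold change of −1.93 (adjusted p = 0.0728 by edgeR). Of 19 other large and cell-surface proteoglycan genes 14 were tested and 8 negative (median −0.28). Srgn, for serglycin of blood cell granules, was called lower (15.1 ± 1.96 to 9.02 ± 1.74 CPM, mean ± SD of 4 mice, −0.74, adjusted p = 0.0426), and Gpc1, the cell-surface heparan sulfate proteoglycan glypican-1, was called higher (22.9 ± 8.25 to 62.0 ± 15.1 CPM, 1.44, adjusted p = 0.0309), although it overlaps Ankmy1. Of 22 genes for glycosaminoglycan chain synthesis 21 were tested and 15 negative (median −0.17), and Fam20b, a xylose kinase of the linkage region, was called higher (11.7 ± 2.03 to 18.4 ± 1.82 CPM, 0.65, adjusted p = 0.0419). All 20 receptors were tested, 13 negative (median −0.07) and none called, the smallest p being that of the integrin subunit gene Itga5 (−0.47, adjusted p = 0.0703). Of 16 hyaluronan genes 10 were tested, 2 negative (median 0.32) and none called, with Hmmr, a hyaluronan receptor also tied to cell division, at −1.79 (adjusted p = 0.0523).

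The calls named from these lists and from the cell markers were sensitive to which mice were included. Without mouse 311, 314 or 319 every one of them was lost, with adjusted p of up to 0.162 by edgeR, and the genes called lower among all tested then numbered 0, 4 and 2. Over the 8 fits that each left out 1 mouse, Ltbp2 and Pcolce were called in 5 each, Gpc1 in 4, Efemp2 in 3, Emilin1 and Adamts9 in 2 each, Srgn and Mgp in 1 each and Fam20b in 0. Of the cell markers, Cd9 and Cps1 were called in 4 each, Timp1 in 2 and Acta2 in 0. Each gene kept its direction in all of these fits, for example Ltbp2 with log2 fold changes from −1.98 to −1.57 and Gpc1 from 1.27 to 1.66.

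**Figure D5:**
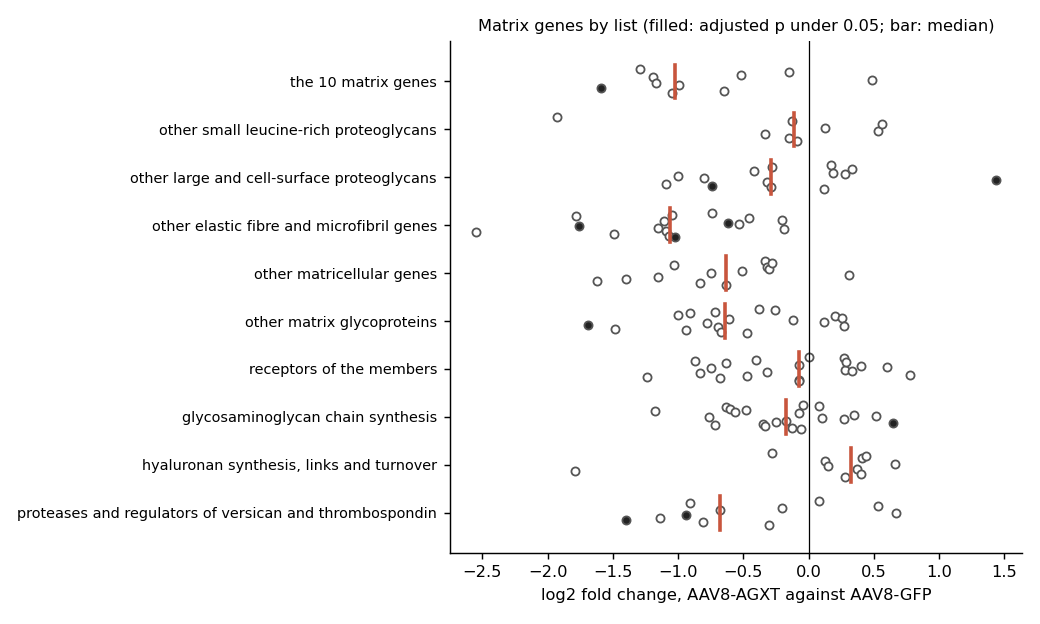
Log2 fold changes of the tested genes in each list (points, filled where adjusted p by edgeR was under 0.05, spread vertically only to separate them), with a red bar at each list's median. The elastic fibre list (median −1.06) lies wholly left of 0 and the hyaluronan list (median 0.32) mostly right of it.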

How the data were processed

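Livers of 8 mice, 4 per group by the sample labels, were analysed from the deposited raw counts. The authors used Trimmomatic 0.35 to trim reads, HISAT2 2.1.0.13 to align them on GRCm38 (Ensembl release 90) and HTSeq-counts 0.6.0 to count them, with strand option and overlap mode not given in the sources used here. Tallies on no gene, non-unique alignments among them, made up 30.9% to 43.7% of all tallies and stayed out of library sizes. Gene names and exon lengths came from GENCODE M21 (GRCm38), which matched 52489 of 52636 genes.

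Counts were tested in R 4.3.3 with edgeR 4.0.16 (filterByExpr, TMM, quasi-likelihood test, no covariate besides treatment). P-values were adjusted by Benjamini-Hochberg over 15248 genes. Differences of log2 CPM (prior count 2) between members were tested by two-sided exact permutation over the 70 arrangements of mice, whose smallest p is 0.0286. Alternatives used DESeq2 1.42.0, limma 3.58.1, other scalings and filters, and each mouse left out in turn. The fit was tested on simulated data.

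The members and lists were chosen with earlier results of these data known. Named genes were all members, the called genes of each list (at most 5) or its gene of smallest p, defining markers, and the 8 genes nearest to the members' mean profile. Agxt, Itih3, Itih4 and the comparison with stellate markers were added after values were seen.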

Additional observations from a re-analysis of the deposited data

How the results depend on the processing

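The members called lower numbered 1 in the reported test, 5 with DESeq2, 5 with limma voomWithQualityWeights, 4 with no filter on low counts, 0 when every mouse had to have at least 10 counts (which left Vcan untested), and 0 to 2 with single mice left out (2 without mouse 315 or 309). None was called higher under any alternative. Over all genes, calls lower and higher numbered 290 and 374, against 1024 and 1054 with DESeq2, 606 and 804 with voomWithQualityWeights, 857 and 144 with total counts alone, 298 and 254 with upper-quartile scaling, and 0 to 325 and 2 to 379 with single mice left out (fewest without mouse 311). Total counts moved the median of all genes to −0.22. The elastic fibre genes called lower numbered 3, and 9, 7, 6 and 7 with DESeq2, voomWithQualityWeights, total counts and no filter, and 0 to 6 with single mice left out. Following this list over these settings was chosen after seeing the data. Leaving out single mice put the log2 fold change of Dcn between −0.35 and 0.06 and the difference of the log2 ratio of Eln to Fbn1 between −0.25 and 0.08, the positive value being that without mouse 319 in both. The causes were not tested. No paired analysis was possible because the groups share no animal number. With 8 to 19 counts per AAV8-AGXT liver, counting error limits Vcan more than any other member.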
